A study of Mus musculus with 12 samples.

Results

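The genes described here are a module of cholesterol and fatty acid synthesis, followed across 4 mouse lung adenocarcinoma cell lines. They were chosen by gene symbol from a list of 31 enzymes, regulators and carriers of sterol and fatty acid synthesis. Of these, 30 had a probe set annotated to that gene alone, out of 18194 genes measured in all, and Acat2 was not analysed here. Each gene is represented by its brightest probe set, and its value is a hybridisation signal on an Affymetrix array, scaled so that all arrays share nearly the same trimmed mean. Signals are relative within a probe set, so a gene is compared with itself across lines and not with another gene.

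The lines KC3, KC2 and KC1 are labelled highly metastatic and KC4 poorly metastatic, with 3 arrays each, called biological replicates in the labels. Every line, KC4 included, carries the genotype K-rasLA1/+; Cdkn1a-/- on a 127s background, that is, a latent oncogenic K-ras allele activated sporadically in somatic cells together with loss of Cdkn1a, which encodes an inhibitor of the cell cycle. The lines came from primary lung tumours (6 tumours in 4 mice, with no label tying a line to a mouse) and were grown in RPMI 1640 medium with serum. The poorly metastatic class is therefore a single line, so metastatic class and the identity of KC4 cannot be told apart, and no wild-type Cdkn1a line is among the samples. Nothing in the labels says what separated the replicates of a line, so p-values measure only the spread between the arrays of a line.

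Cells make cholesterol and isoprenoids from acetyl-CoA by way of mevalonate, farnesyl diphosphate, squalene and lanosterol, and fatty acids by way of malonyl-CoA and palmitate, which is then elongated and desaturated. The genes of both routes are known targets of the SREBP transcription factors, encoded by Srebf1 and Srebf2, which leave the endoplasmic reticulum when membrane sterol is low and are held there by Insig proteins when it is high. In the lung this synthesis is best known from alveolar epithelial cells, which make the lipids of surfactant, and growing tumour cells use it for membranes and for lipid-modified signalling proteins.

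SREBP proteins act on such promoters together with NF-Y, a factor that binds CCAAT boxes, and with factors that bind GC boxes, so the promoters of 6 genes that were low in KC3 are shown for the letters they share. The sequences are those of RefSeq on GRCm38.p6, from 250 bases before to 50 bases after the annotated start, written 5′ to 3′ on the gene's strand. Capitals mark CCAAT on either strand (ATTGG when read on the opposite one) and, in Hmgcs1 alone, the sterol element TCACNCCAC. The windows are chr8:122443373-122443672 on the minus strand for Mvd, chr13:119690101-119690400 on the plus strand for Hmgcs1, chr5:114444019-114444318 on the plus strand for Mvk, chr13:8885356-8885655 on the plus strand for Idi1, chr5:4104648-4104947 on the minus strand for Cyp51 and chrX:72918271-72918570 on the plus strand for Nsdhl.
Mvd: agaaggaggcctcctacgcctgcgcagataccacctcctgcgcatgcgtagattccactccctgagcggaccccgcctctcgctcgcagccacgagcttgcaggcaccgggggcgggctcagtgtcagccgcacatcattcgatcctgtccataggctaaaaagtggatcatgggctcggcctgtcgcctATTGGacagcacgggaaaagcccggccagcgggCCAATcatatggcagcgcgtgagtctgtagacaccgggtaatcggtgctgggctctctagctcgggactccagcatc
Hmgcs1: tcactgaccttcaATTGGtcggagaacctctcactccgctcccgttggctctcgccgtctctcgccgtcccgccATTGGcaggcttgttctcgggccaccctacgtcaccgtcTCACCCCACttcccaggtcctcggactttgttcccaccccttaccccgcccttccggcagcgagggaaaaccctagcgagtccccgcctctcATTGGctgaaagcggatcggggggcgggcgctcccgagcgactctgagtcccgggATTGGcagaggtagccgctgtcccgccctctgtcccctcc
Mvk: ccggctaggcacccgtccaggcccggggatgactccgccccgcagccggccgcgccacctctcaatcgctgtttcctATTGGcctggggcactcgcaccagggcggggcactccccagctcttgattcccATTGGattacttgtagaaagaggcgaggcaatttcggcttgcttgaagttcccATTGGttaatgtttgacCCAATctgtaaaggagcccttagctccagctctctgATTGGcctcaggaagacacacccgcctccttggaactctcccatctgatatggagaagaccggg
Idi1: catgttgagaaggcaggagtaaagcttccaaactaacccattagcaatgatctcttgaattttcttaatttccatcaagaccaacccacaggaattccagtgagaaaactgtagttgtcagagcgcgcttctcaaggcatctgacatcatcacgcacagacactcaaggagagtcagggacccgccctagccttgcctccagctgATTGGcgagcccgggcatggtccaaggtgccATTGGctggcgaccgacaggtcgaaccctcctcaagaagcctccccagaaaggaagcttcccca
Cyp51: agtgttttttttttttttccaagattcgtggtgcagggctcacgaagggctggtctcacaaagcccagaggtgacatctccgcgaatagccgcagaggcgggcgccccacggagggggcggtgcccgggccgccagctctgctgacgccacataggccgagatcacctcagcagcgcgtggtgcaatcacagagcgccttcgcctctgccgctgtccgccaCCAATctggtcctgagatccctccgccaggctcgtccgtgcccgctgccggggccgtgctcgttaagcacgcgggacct
Nsdhl: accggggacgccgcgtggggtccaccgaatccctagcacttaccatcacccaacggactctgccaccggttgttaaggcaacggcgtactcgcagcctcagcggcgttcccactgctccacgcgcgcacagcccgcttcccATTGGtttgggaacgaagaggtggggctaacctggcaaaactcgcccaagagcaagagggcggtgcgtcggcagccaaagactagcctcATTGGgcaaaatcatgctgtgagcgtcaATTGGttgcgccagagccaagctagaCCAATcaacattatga

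These windows hold 2 CCAAT boxes in Mvd, 4 in Hmgcs1, 5 in Mvk, 2 in Idi1, 1 in Cyp51 and 4 in Nsdhl. Promoters were matched for 24 of the 31 listed genes, some with more than 1 annotated start, which gave 29 promoters. CCAAT on either strand stood in 21 of the 29 (72.4%), against 37.4% of all 32851 promoters of the same length in the table. The GC box letters GGGCGG stood in 22 of the 29 (75.9%), against 35.7% of all promoters. The sterol element letters TCACNCCAC were found in 1 of the 29 (3.4%), that of Hmgcs1, against 1.2% of all promoters. The 3 motifs can overlap only at their ends, and the matches describe the letters of these windows and not binding.

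KC3 held the lowest levels of the module. Its mean was the lowest of the 4 lines for 28 of the 30 measured genes, against 29.4% of all genes, and its 3 arrays lay below all 9 arrays of the other lines for 25 of the 30, against 8.44% of all genes. The exceptions to the lowest mean were Dhcr7, lowest in KC1, and Acaca, lowest in KC2. A gene is called different here when limma's adjusted p, with Benjamini-Hochberg adjustment over all 18194 genes, is under 0.05 and the log2 difference is at least 1. By that rule KC3 was lower than KC2 for 14 of the 30 genes (5.9% of all genes were), lower than KC1 for 14 (5.33% of all genes) and lower than KC4 for 17 (4.7% of all genes), and higher than another line for none. These 3 comparisons share the KC3 arrays. For 12 genes KC3 was called lower than each of the other lines, against 1.54% of all genes: Hmgcs1, Mvk, Mvd, Idi1, Fdps, Fdft1, Cyp51, Nsdhl, Srebf1, Insig1, Scd2 and Fads2.

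The median log2 difference over the 30 genes was -0.92 for KC3 minus KC2, -0.88 for KC3 minus KC1 and -1.09 for KC3 minus KC4, where the medians over all genes were -0.046, 0 and -0.015. Most of the module is brightly measured: 26 of the 30 genes had a mean log2 signal over 9, and among the 6779 genes of the array set above that level 5.1%, 4.01% and 4.06% were called lower in KC3 than in KC2, KC1 and KC4, while 14.1% had all KC3 arrays below the rest. The replicate SD was also small, with a median of 0.108 on the log2 scale over the module. In these bulk cultures, fewer cells expressing a gene and less RNA per cell cannot be told apart.

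The KC3 arrays had median signals of 94.5 to 112, against 107 to 128 in the arrays of KC2, KC1 and KC4, at the same trimmed mean. The 5′ probe set for 18S rRNA averaged 414, 451 and 605 in KC3, KC2 and KC1, against 3305 in KC4. Its 3′ probe set averaged 590, 576 and 485, against 868. A bacterial dap control probe set averaged 178, 310 and 315 in KC3, KC2 and KC1, against 336 in KC4. Most probe sets of the lys, phe and thr controls were low in KC3 too. A 3′ probe set of each averaged 157, 127 and 177 in KC3, against 235, 160 and 272 in KC2. These averaged 250, 170 and 276 in KC1 and 283, 187 and 293 in KC4. A thr probe set was lowest in KC4 (190, against 225 in KC3). A cre probe set was not low in KC3 (10507, against 9761, 10108 and 10014 in KC2, KC1 and KC4). The part of these differences in the results was not tested. With arrays centred on their medians, KC3 had 9 genes called lower than KC2, 10 than KC1 and 13 than KC4, and the medians were -0.68, -0.67 and -0.91, while the medians over all genes were 0.096, 0.13 and 0.076. Of all 18194 genes, 738, 717 and 637 were called lower in KC3 than in KC2, KC1 and KC4 after this centring. The calls lost by this centring, all with an adjusted p still under 0.05, were those of Cyp51, Elovl6, Fads1, Fdps and Srebf1 against KC2, of Fasn, Msmo1, Scd2 and Srebf1 against KC1, and of Acss2, Pmvk, Scd1 and Scd2 against KC4.

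**Figure D1:**
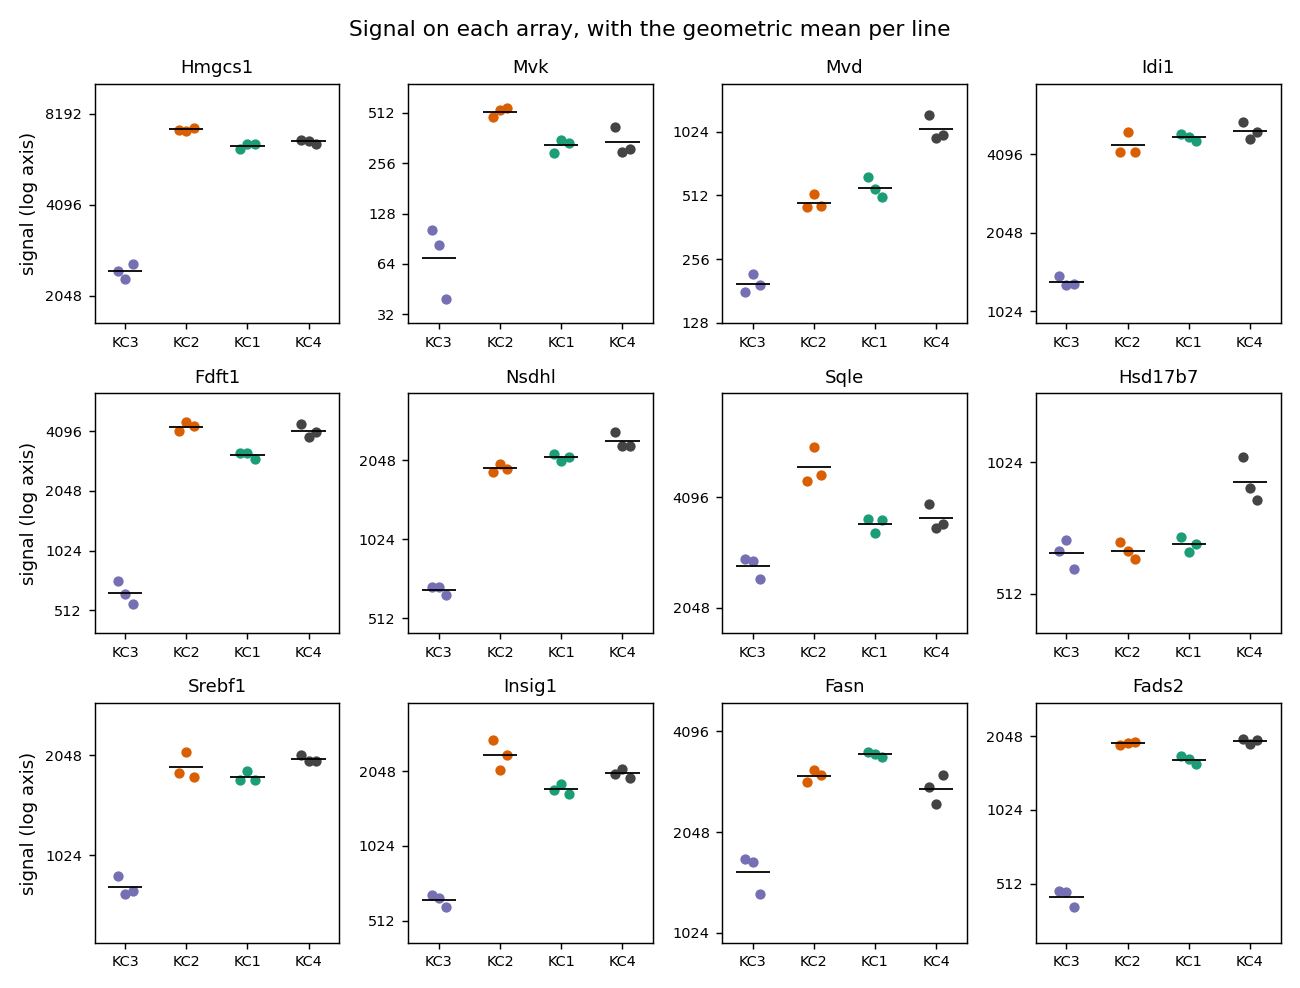
Signal of every array (log axis, scaled array units) for 12 of the 30 genes in KC3, KC2, KC1 and KC4, with 1 point per array and a bar at the geometric mean of the 3 arrays. The KC3 points lie below those of every other line except for Hsd17b7, where KC4 stands above the rest.

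All 6 measured enzymes of the mevalonate steps were called lower in KC3 than in KC4, with a median log2 difference of -1.83. Mvd, the mevalonate diphosphate decarboxylase that makes isopentenyl diphosphate, had signals of 178, 218 and 193 in KC3, against 450, 517 and 456 in KC2, 627, 549 and 503 in KC1, and 1234, 951 and 988 in KC4. KC3 was at the bottom and KC4 at the top, both apart from KC2 and KC1, which overlapped. KC3 differed by -1.27 against KC2, -1.51 against KC1 and -2.42 against KC4 (SE 0.12 each), with adjusted p in limma of at most 3.48e-05.

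Mvk, mevalonate kinase, had signals of 102, 83.2 and 39.5 in KC3, against 484, 530 and 548 in KC2, 296, 353 and 340 in KC1, and 423, 301 and 312 in KC4. Its KC3 arrays were all below the other lines, and the lowest of them was less than the other KC3 arrays by a wide margin, which gives this gene the largest replicate spread of the module. The log2 differences of KC3 were -2.90 against KC2, -2.24 against KC1 and -2.30 against KC4 (SE 0.31 each), with adjusted p in limma of at most 0.000392. Hmgcs1, the cytosolic HMG-CoA synthase at the entry to the pathway, had signals of 2477, 2321 and 2600 in KC3, against 7234, 7219 and 7377 in KC2, 6261, 6531 and 6504 in KC1, and 6719, 6687 and 6526 in KC4. Its replicates lay close together, and KC3 stood -1.56 from KC2, -1.38 from KC1 and -1.43 from KC4 on the log2 scale (SE 0.041 each, adjusted p in limma of at most 5.44e-08).

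Idi1, the isopentenyl diphosphate isomerase, had signals of 1392, 1289 and 1300 in KC3, against 4191, 4999 and 4179 in KC2, 4902, 4785 and 4633 in KC1, and 5475, 4697 and 4987 in KC4. Here KC2, KC1 and KC4 overlapped and KC3 was apart from them, at -1.74 against KC2, -1.85 against KC1 and -1.93 against KC4 (SE 0.080 each) on the log2 scale, with adjusted p in limma of at most 3.71e-07. Fdps, the farnesyl diphosphate synthase at the branch between sterols and prenylated products, had signals of 2463, 2330 and 1984 in KC3, against 4936, 5733 and 4848 in KC2, 6533, 5966 and 5992 in KC1, and 8046, 7072 and 7298 in KC4. KC3 was again below every other array, at -1.20 against KC2, -1.45 against KC1 and -1.73 against KC4 (SE 0.096 each), and adjusted p in limma was at most 1.02e-05. With the mean of all probe sets these became -0.60, -0.73 and -0.86 and none was called; the other Fdps probe set had a mean log2 signal of 4, the floor, over the 12 arrays.

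Pmvk, phosphomevalonate kinase, departed from its neighbours, with signals of 346, 382 and 532 in KC3, against 559, 526 and 579 in KC2, 568, 520 and 522 in KC1, and 1059, 812 and 796 in KC4. One KC3 array reached the range of KC2 and KC1, while all KC4 arrays were above the rest. Only the difference from KC4 was called (-1.10, SE 0.16, adjusted p 0.000634 in limma); without KC3 replicate 1 it was -0.97 and without KC4 replicate 1 it was -0.96, both under the required difference. KC3 differed from KC2 by -0.43 (adjusted p 0.0678) and from KC1 by -0.38 (adjusted p 0.112), neither of which passed.

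Between squalene and cholesterol, 5 of 11 measured enzymes were called lower in KC3 than in KC4, with a median of -0.94. Fdft1, squalene synthase, which commits farnesyl diphosphate to sterols, had signals of 724, 623 and 552 in KC3, against 4096, 4535 and 4343 in KC2, 3165, 3191 and 2963 in KC1, and 4453, 3810 and 4038 in KC4. No KC3 array came near the other lines. Its log2 differences, -2.78 against KC2, -2.30 against KC1 and -2.70 against KC4 (SE 0.098 each), include the largest of the module against KC4, 6.51-fold lower in KC3, with adjusted p in limma of at most 3.29e-07. The probe set is one whose name marks possible cross-hybridisation (x_at), and a second bright Fdft1 probe set, without that mark, gave -2.51 for KC3 minus KC4. A further pair of Fdft1 probe sets was dim, with mean log2 signals of 6.13 and 5.11, and was not called for KC3 minus KC4 (0.16 and -0.82). The probe set of Hmgcs1 bears the x_at mark too, and that of Lss is an s_at one. Without s_at and x_at probe sets, 15, 15 and 17 genes were called lower in KC3 than in KC2, KC1 and KC4.

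Nsdhl, a dehydrogenase that helps remove the methyl groups of lanosterol, had signals of 674, 675 and 631 in KC3, against 1846, 1988 and 1898 in KC2, 2173, 2040 and 2113 in KC1, and 2627, 2327 and 2315 in KC4. KC3 lay well below the other 3 lines, at -1.53 against KC2, -1.68 against KC1 and -1.87 against KC4 (SE 0.057 each), with adjusted p in limma of at most 1.02e-07. Cyp51, the lanosterol demethylase, had signals of 1048, 1020 and 1103 in KC3, against 2686, 2040 and 2412 in KC2, 2476, 2602 and 2508 in KC1, and 2996, 3086 and 2975 in KC4. Its differences, -1.16 against KC2, -1.26 against KC1 and -1.51 against KC4 (SE 0.085 each), were called against each line, with adjusted p in limma of at most 5.69e-06. With the mean of all probe sets the differences from KC2 and KC1 were -0.86 and -0.92, under the required size.

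Msmo1, the sterol methyl oxidase, had signals of 2897, 2744 and 2855 in KC3, against 5340, 5005 and 5187 in KC2, 6171, 6299 and 6271 in KC1, and 7603, 8006 and 7414 in KC4. All 4 lines were separate, in the order KC3, KC2, KC1, KC4 from low to high, and KC3 differed by -0.87 against KC2, -1.14 against KC1 and -1.44 against KC4 (SE 0.039 each); the difference from KC2 fell short of a log2 value of 1. Lss, lanosterol synthase, had signals of 484, 456 and 450 in KC3, against 925, 802 and 746 in KC2, 704, 767 and 702 in KC1, and 1071, 1230 and 1110 in KC4. Its KC3 arrays were below and its KC4 arrays above all others, and only KC3 minus KC4 was called (-1.29, SE 0.084, adjusted p 4.04e-06 in limma).

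Dhcr7, the reductase of the last step, had signals of 480, 401 and 581 in KC3, against 574, 522 and 543 in KC2, 416, 422 and 430 in KC1, and 801, 1070 and 752 in KC4. Its KC3 arrays overlapped those of KC2 and of KC1, KC4 was above all, and the called difference was that of KC1 minus KC4 (-1.03, SE 0.15, adjusted p 0.000965 in limma), which became -0.88 without KC4 replicate 2. Hsd17b7, a ketosteroid reductase of the demethylation steps, ran from 582 to 680 in KC3 and from 615 to 692 in KC2 and KC1, against 841 to 1052 in KC4, so that KC3 minus KC2 (-0.02) and KC3 minus KC1 (-0.07) were near 0. KC4 was above every other array for this enzyme.

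Sqle, squalene epoxidase, ran from 2448 to 2775 in KC3, from 4541 to 5602 in KC2, from 3271 to 3575 in KC1 and from 3382 to 3921 in KC4. It was low in KC3 and high in KC2, with -0.43 for KC3 minus KC4 (adjusted p 0.00565 in limma), under the required difference. Ebp, a sterol isomerase, ran from 1812 to 2181 in KC3, against 3068 to 3787 in KC2 and KC1 and 3802 to 4109 in KC4. Sc5d, a sterol desaturase, ran from 1664 to 2114 in KC3, against 2377 to 2731 in KC2 and KC1 and 2834 to 3285 in KC4. Tm7sf2, a sterol reductase, ran from 239 to 279 in KC3, against 362 to 492 in KC2 and KC1 and 350 to 408 in KC4. In all of these the 3 KC3 arrays were the lowest of the 12, and the KC3 minus KC4 differences, -0.94 for Ebp, -0.66 for Sc5d and -0.58 for Tm7sf2, had an adjusted p under 0.05 but were under a log2 value of 1.

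**Figure D2:**
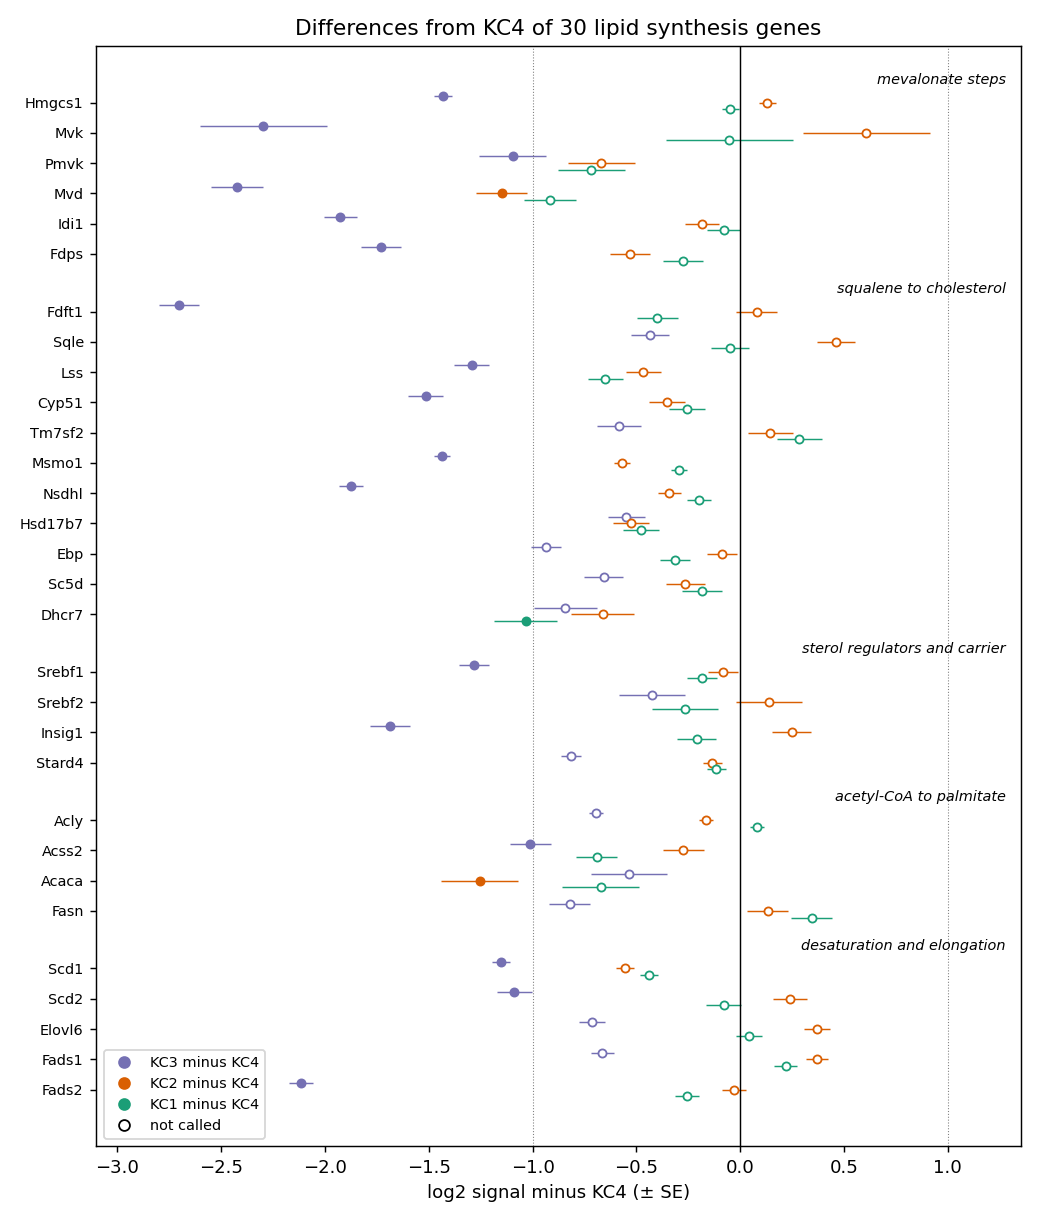
Log2 difference of KC3, KC2 and KC1 from KC4 for each of the 30 measured genes, grouped by role, with bars of 1 standard error from limma. All 30 KC3 values are below 0 and reach -2.70 for Fdft1, while the KC2 and KC1 values run from -1.25 for Acaca to 0.61 for Mvk, both in KC2.

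Among the regulators, Insig1 and Srebf1 were called lower in KC3 than in every other line. Insig1, which retains SREBP in the endoplasmic reticulum and is itself an SREBP target, had signals of 652, 634 and 584 in KC3, against 2739, 2066 and 2384 in KC2, 1724, 1822 and 1656 in KC1, and 1998, 2094 and 1925 in KC4. KC3 differed by -1.93 against KC2, -1.48 against KC1 and -1.69 against KC4 (SE 0.095 each), with adjusted p in limma of at most 3.93e-06, and KC2 was the highest by mean. Srebf1, the factor best known for fatty acid synthesis, had signals of 886, 782 and 800 in KC3, against 1809, 2097 and 1762 in KC2, 1724, 1836 and 1725 in KC1, and 2059, 1974 and 1962 in KC4. KC3 was below every other array, at -1.20 against KC2, -1.10 against KC1 and -1.28 against KC4 (SE 0.072 each) on the log2 scale, with adjusted p in limma of at most 4.42e-06.

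Srebf2, the factor best known for sterol synthesis, was less separated, with signals from 1372 to 1771 in KC3, from 2053 to 2686 in KC2, from 1561 to 2059 in KC1 and from 1785 to 2398 in KC4. KC3 overlapped KC1 and was -0.43 from KC4 (SE 0.16, adjusted p 0.0701 in limma), which missed the threshold, and -0.56 from KC2 (adjusted p 0.0193). Stard4, a soluble sterol carrier, ran from 1381 to 1564 in KC3, against 2298 to 2435 in KC2 and KC1 and 2563 to 2616 in KC4. KC3 was separate from all other arrays for Stard4, at -0.81 from KC4, under the required difference.

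From acetyl-CoA to palmitate, 1 of 4 genes was called lower in KC3 than in KC4, with a median of -0.76. That gene was Acss2, the cytosolic acetyl-CoA synthetase, with signals of 122, 148 and 146 in KC3, against 222, 226 and 245 in KC2, 157, 184 and 180 in KC1, and 300, 288 and 252 in KC4. KC3 was below the rest and KC4 above it, and the difference from KC4 was -1.01 (SE 0.099, adjusted p 5.03e-05 in limma), just past the required size; it became -0.92 without KC3 replicate 1, -0.96 without KC4 replicate 1, -0.99 without KC4 replicate 2, -0.93 with a pseudocount in place of the floor, -0.89 with quantile normalization and -0.83 with median centring. Fasn, fatty acid synthase, ran from 1339 to 1698 in KC3, from 2899 to 3145 in KC2, from 3440 to 3549 in KC1 and from 2479 to 3029 in KC4. It was highest in KC1, and KC3 was called lower than KC1 (-1.16, SE 0.099, adjusted p 2.05e-05 in limma) but was -0.82 from KC4 and -0.95 from KC2, under the required difference.

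Acly, ATP citrate lyase, which releases acetyl-CoA from citrate, ran from 3590 to 3902 in KC3, from 5397 to 5512 in KC2, from 6356 to 6564 in KC1 and from 6063 to 6178 in KC4. The lines were separate, and KC3 minus KC4 was -0.69. Acaca, the acetyl-CoA carboxylase that makes malonyl-CoA, had another order, with signals of 635, 580 and 433 in KC3, against 361, 303 and 326 in KC2, 551, 556 and 390 in KC1, and 861, 674 and 834 in KC4. By this probe set KC2, not KC3, was the lowest line. KC2 was called lower than KC4 (-1.25, SE 0.18, adjusted p 0.000536 in limma), while KC3 was 0.72 above KC2 (adjusted p 0.0122) and -0.53 from KC4 (adjusted p 0.0523), which missed the threshold. With the mean of all probe sets KC2 minus KC4 was -0.77 for Acaca and was not called.

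For desaturation and elongation, 3 of 5 genes were called lower in KC3 than in KC4, with a median of -1.09. Fads2, a desaturase of polyunsaturated fatty acids, had signals of 477, 473 and 411 in KC3, against 1889, 1920 and 1949 in KC2, 1694, 1653 and 1572 in KC1, and 1995, 1901 and 1983 in KC4. KC3 lay far below the other lines, at -2.08 against KC2, -1.86 against KC1 and -2.11 against KC4 (SE 0.058 each), with adjusted p in limma of at most 6.68e-08, which is 4.33-fold lower than KC4. Scd2 and Scd1 are stearoyl-CoA desaturases, which make monounsaturated fatty acids.

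Scd2 had signals of 7319, 6857 and 6343 in KC3, against 15740, 18580 and 17200 in KC2, 14080, 13710 and 13420 in KC1, and 15500, 13060 and 15080 in KC4. KC3 differed by -1.33 against KC2, -1.01 against KC1 and -1.09 against KC4 (SE 0.084 each), with adjusted p in limma of at most 1.82e-05; the difference from KC1 became -0.99 without KC1 replicate 1 and -0.96 without KC3 replicate 3. Scd1 had signals of 1174, 1082 and 1051 in KC3, against 1655, 1687 and 1663 in KC2, 1784, 1848 and 1792 in KC1, and 2470, 2366 and 2513 in KC4. All 4 lines were separate, in the order KC3, KC2, KC1, KC4 from low to high, and only KC3 minus KC4 was called (-1.15, SE 0.043, adjusted p 1.37e-07 in limma).

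Elovl6, the elongase that acts on palmitate, ran from 789 to 838 in KC3, from 1691 to 1785 in KC2, from 1350 to 1395 in KC1 and from 1257 to 1498 in KC4. Fads1, a desaturase that follows Fads2, ran from 890 to 939 in KC3, from 1794 to 1924 in KC2, from 1564 to 1759 in KC1 and from 1394 to 1517 in KC4. Both were low in KC3 and high in KC2: KC3 minus KC2 was called for Elovl6 (-1.08, adjusted p 1.46e-06 in limma) and for Fads1 (-1.03, adjusted p 7.1e-07 in limma). Against KC4 they stood at -0.71 and -0.66, under the required difference.

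Where a gene had several probe sets, the others were counted too. For the genes called in KC3 minus KC4 there were 23 further probe sets, of which 15 were called lower, 8 were not called and 0 were called higher. Of the 20 further probe sets of the genes called in KC3 minus KC2, 13 were called lower and 0 higher, and of the 18 in KC3 minus KC1, 12 were called lower and 0 higher. For the class comparison, described next, 1 of 4 further probe sets was called lower and 3 were not called, and for KC2 minus KC4 0 of 2 were called, the one of Mvd at -0.98 (adjusted p 0.000424 in limma) and that of Acaca at -0.29 (adjusted p 0.359).

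The series sets highly against poorly metastatic lines, here the mean of KC3, KC2 and KC1 minus KC4. Of the 30 genes, 2 were called lower and 0 higher, where 2.57% of all genes were called lower: Mvd (-1.50, SE 0.10, adjusted p 5.56e-06 in limma) and Fdft1 (-1.01, SE 0.080, adjusted p 1.43e-05 in limma). All 30 differences were below 0, with a median of -0.57, and by adjusted p alone 23 genes were lower, against 15.3% of all genes. The count depended on KC3: it was 7 without KC2 and 7 without KC1. Without KC3, 1 gene was called, Mvd at -1.03 (adjusted p 0.000426), and Fdft1 was at -0.16 (adjusted p 0.0869). With the mean of all probe sets Fdft1 was -0.45 (adjusted p 0.0509) and was not called. With the line as a random block in limma 0 were called, against 1.42% of all genes, and Mvd had an adjusted p of 0.132. In that run 9 of the 30 had an unadjusted p under 0.05. The share of all genes with such a p is not given here, nor is the share called in the runs without a line.

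KC2 minus KC4 had 2 genes called lower, Mvd (-1.15) and Acaca (-1.25), where 4.46% of all genes were. The call of Acaca was lost with the mean of all probe sets (-0.77). KC1 minus KC4 had 1, Dhcr7 (-1.03), where 2.05% of all genes were. Neither had a gene called higher, and the medians were -0.15 and -0.23. KC4 was the highest line by mean for 18 of the 30 genes, against 25.6% of all genes, and all its arrays lay above the rest for 15, against 6.9% of all genes, but 0 genes were called higher in KC4 than in each other line, against 0.698% of all genes. These comparisons share the KC4 arrays.

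Between KC2 and KC1, 0 of 30 genes were called in KC2 minus KC1, where 5.01% of all genes were called in either direction, and the median difference was 0.07. In limma 18 had an unadjusted p under 0.05, for which the share of all genes is not given here. By adjusted p alone 12 genes differed, 9 higher and 3 lower in KC2, where 12.3% of all genes were higher and 14.1% lower. The largest of these were Acaca (-0.58, adjusted p 0.0457) and Sqle (0.51, adjusted p 0.0032). KC2 had all its arrays above every other array for Hmgcs1, Mvk, Sqle, Scd2, Elovl6 and Fads1, that is 6 genes, against 8.92% of all genes, and KC1 for Acly and Fasn, that is 2 genes, against 4.06% of all genes.

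**Figure D3:**
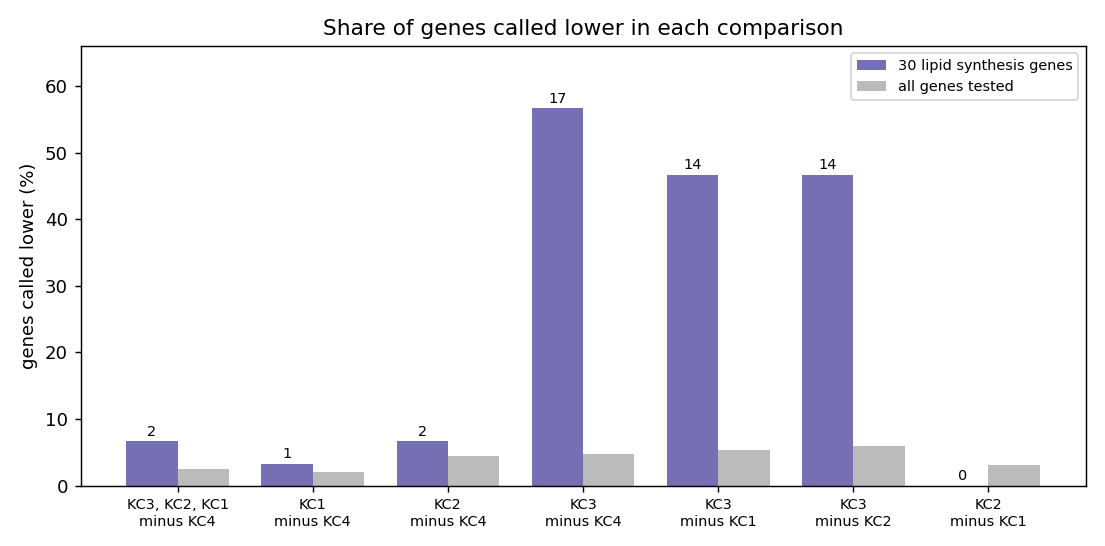
Percentage of genes called lower (adjusted p under 0.05 and a log2 difference of at least 1) in each comparison, for the 30 genes of the module and for all 18194 genes. The 3 comparisons of KC3 have 14 to 17 of 30 genes called, and the others 0 to 2.

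Over 5 lists of related lipid genes, 7 of 88 genes (7.95%) were called in KC3 minus KC4, close to the 8.22% of all genes called in either direction (3.52% higher and 4.7% lower). Of 14 other sterol and isoprenoid enzymes, 0 were called in KC3 minus KC4 by limma, and their median was 0.27. An unadjusted p under 0.05 was found for 9 of the 14, and the share of all genes with such a p is not given here. Fnta, a subunit of the farnesyltransferase that uses the farnesyl diphosphate made by Fdps, averaged 5887 ± 150 in KC3, against 2634 ± 193 in KC2, 2880 ± 121 in KC1 and 4670 ± 160 in KC4 (SD, n = 3 each). It was called higher in KC3 than in KC2 (1.16, adjusted p 4.99e-07 in limma) and KC1 (1.03). Of 15 genes of SREBP control and cholesterol uptake, 1 was called higher and 0 lower in KC3 minus KC4, with a median of -0.06. The called gene was Erlin1, an endoplasmic reticulum protein of sterol-regulated protein degradation, at 2670 ± 249 in KC3, against 748 ± 115 in KC2, 809 ± 72.1 in KC1 and 1319 ± 105 in KC4, and it was called higher in KC3 than in each (1.84, 1.72 and 1.02). Npc1, which exports cholesterol from lysosomes, and Tmem97, a sterol-responsive membrane protein, were called lower in KC2 than in KC4 (-1.33 and -1.25). Npc1 and Tmem97 were also below KC4 in KC3 (-0.79 and -0.87) and in KC1 (-0.72 and -0.85), though not called there.

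Of 12 genes of LXR response, efflux and sterol storage, 2 were called lower in KC3 minus KC4, against 4.7% of all genes, with a median of 0.09. They were Lpcat3, which puts polyunsaturated chains into phospholipids (-1.36, adjusted p 9e-07 in limma), and Cyp27a1, a sterol hydroxylase near the floor in KC3 (-1.19, adjusted p 0.0402 in limma). Nceh1, a cholesteryl ester hydrolase, was called higher in KC3 than in KC1 (1.08). Lpcat3 was called lower in KC1 too (-1.16 from KC4).

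Of 26 other genes of fatty acid and glycerolipid synthesis, 1 was called higher and 1 lower in KC3 minus KC4, with a median of -0.24. Dgat2, which makes triglyceride, averaged 1550 ± 224 in KC3, against 832 ± 39.5 in KC2, 398 ± 26.1 in KC1 and 596 ± 74 in KC4, so that it was high where the module was low (1.38 from KC4, adjusted p 2.66e-05 in limma). Acsl4, which activates polyunsaturated fatty acids, was lower in KC3 (-1.25 from KC4 and -1.82 from KC1). Acacb, the mitochondrial carboxylase, was near the floor outside KC2 and was called lower in KC3 than in KC2 (-1.75).

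Of 21 fatty acid oxidation genes, 2 were called lower in KC3 minus KC4, against 4.7% of all genes, with a median of -0.27. Decr1, a mitochondrial reductase for unsaturated chains, averaged 443 ± 38.4 in KC3, against 878 ± 76.9 in KC2, 1291 ± 38 in KC1 and 1760 ± 117 in KC4 (-1.99 for KC3 minus KC4). Acaa2, a mitochondrial thiolase, averaged 553 ± 27.6 in KC3, against 1701 ± 100 in KC2, 1103 ± 1.43 in KC1 and 1172 ± 122 in KC4. Cpt1c, a carnitine palmitoyltransferase relative, had 2 KC3 arrays at the floor and was called lower in KC3 than in KC2 (-1.997).

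**Figure D4:**
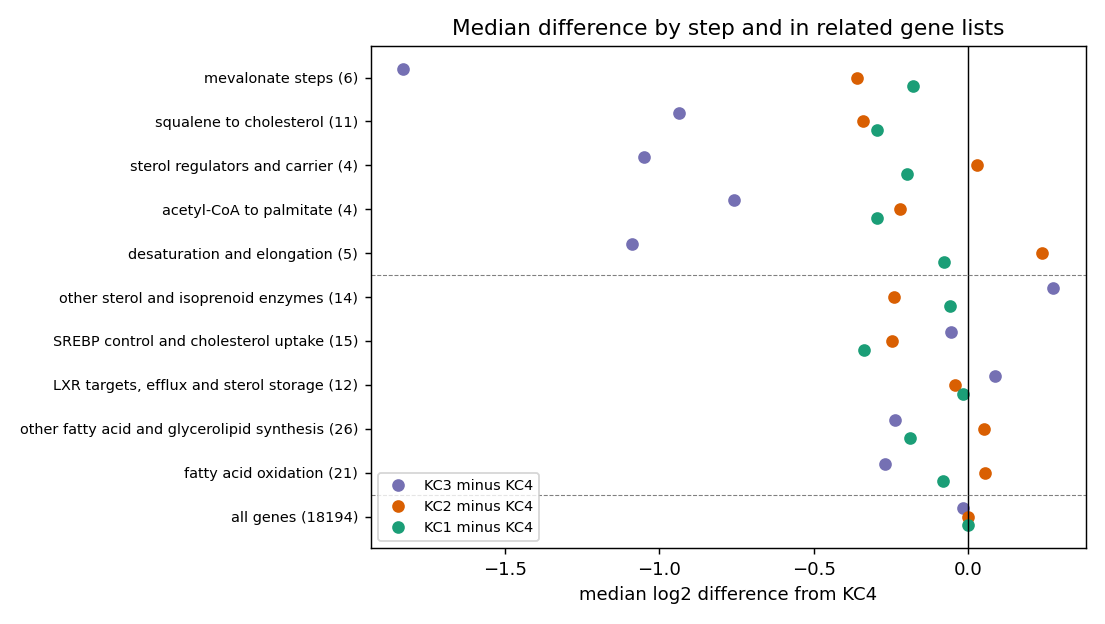
Median log2 difference for the roles of the module, for 5 lists of related lipid genes and for all genes (log2 signal of KC3, KC2 and KC1 minus that of KC4). For KC3 minus KC4 the module's roles lie at -0.76 to -1.83, and the related lists lie between -0.27 and 0.27.

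The epithelial markers Epcam, Cdh1, Krt8, Krt18, Krt19, Cldn4 and Cldn7 were bright in every line, with summed signals of 80760 to 84490 in KC3, 75770 to 94270 in KC2 and 84180 to 89060 in KC1, against 63410 to 74860 in KC4. Markers of alveolar and club cells had smaller summed signals, over 6 genes, of 490.2 to 782.5 in KC3, 465.7 to 681.2 in KC2 and 669 to 1273 in KC1, against 888.7 to 1203 in KC4. Nkx2-1, the lineage factor of lung epithelium, averaged 28.9 ± 6.85 in KC3, 21.6 ± 3.18 in KC2 and 14.3 ± 9.06 in KC1, against 45.2 ± 16.9 in KC4 (SD, n = 3 each), all close to the floor of 16, and Scgb1a1, the club cell marker, had 1 array at the floor in every line. Foxa2, a transcription factor of lung and other endodermal epithelia, carried much of these sums, at 190 ± 16.6 in KC3, 103 ± 12.2 in KC2 and 515 ± 243 in KC1, against 527 ± 90.7 in KC4. Sftpb, a surfactant protein, averaged 219 ± 144 in KC3, 239 ± 67.4 in KC2 and 225 ± 33.8 in KC1, against 303 ± 137 in KC4. Of these listed markers, Nkx2-1 and Scgb1a1 were thus near the floor, while Foxa2 and Sftpb were above it. The surfactant gene Sftpc was above it too, averaging 99.6 in KC3, 105 in KC2, 117 in KC1 and 107 in KC4. Sftpa1 averaged 57.2 in KC3, 60.8 in KC2, 72.3 in KC1 and 53.9 in KC4.

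Markers of other cell types had smaller summed signals than the epithelial markers in all lines, though different probe sets are not on 1 scale. Some single genes were well above the floor, such as the leukocyte gene Cd68 (324 in KC2, 176 in KC4) and the endothelial gene Kdr (197 in KC3, 226 in KC2). The sums for 7 leukocyte genes were 656.4 to 684.5 in KC3, 749.3 to 778.6 in KC2 and 558.7 to 644.7 in KC1, against 546.8 to 708.4 in KC4. Those for 8 fibroblast genes, of which 1 was at the floor on all arrays of each line, were 435.1 to 670.4 in KC3, 556.3 to 626.6 in KC2 and 490.5 to 510.1 in KC1, against 435.5 to 714.7 in KC4. Endothelial sums over 5 genes were 334.2 to 360.7 in KC3, 389.4 to 453.8 in KC2 and 319.5 to 525.9 in KC1, against 362.5 to 465.8 in KC4. Adipocyte markers, with 2 of 4 genes at the floor on all arrays of each line, did not separate KC3 from the other lines, with sums of 59.9 to 127 in KC3, 90.1 to 105 in KC2 and 52.9 to 88.2 in KC1, against 71.3 to 118 in KC4.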

How the data were processed

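RNA of 12 samples was hybridised to Affymetrix arrays with a biotin label, per the labels. The deposited values are intensities per probe set on a linear scale. Their 2%-trimmed mean was 500.002 to 500.003 on every array, as found from the values, and per the labels and values used here no software is named for them. Intensities under 16 were set to 16 (15.3% to 19.9% of probe sets per array) and log2 was taken. Of 45101 probe sets, 34958 had 1 gene symbol in the platform annotation, 932 had several and 9211 had none listed. The probe set with the highest mean stood for each of 18194 genes. limma 3.58.1 in R 4.3.3 fitted 1 coefficient per line over all 12 arrays, with empirical Bayes moderation and Benjamini-Hochberg adjustment over all genes, after tests on simulated data. The number of arrays limits the precision.

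The genes, lists and tests were chosen with earlier results of these data known. All listed genes are named, and values of every array are given for genes called against KC4 or in at least 2 of the 6 pairs of lines. From each related list up to 3 genes were named, those with the largest difference among called genes. Floor, pseudocount, probe set, normalization, filter, prior, call rule, arrays and lines were varied.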

Additional observations from a re-analysis of the deposited data

Results flagged for a closer look

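Against KC4, 5 of the 30 genes had an adjusted p under 0.05 in limma in opposite directions in different highly metastatic lines. The share of all genes with this pattern is not given here. By adjusted p alone, 16% of all genes were lower in KC3 than in KC4. Against KC4, 18% of all genes were higher in KC2 and 13.5% in KC1. The differences between lines given below follow from this choice of genes and are no separate support. Hmgcs1, the HMG-CoA synthase, was at -1.43 in KC3 and 0.13 in KC2 on the log2 scale, and KC3 minus KC2 was -1.56 (adjusted p 1.76e-08 in limma). Sqle, squalene epoxidase, was at -0.43 in KC3 and 0.46 in KC2, with KC3 minus KC2 at -0.89 (adjusted p 5.22e-05). Both sterol genes thus lay on opposite sides of KC4.

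Fasn, fatty acid synthase, was at -0.82 in KC3 and 0.34 in KC1, with KC3 minus KC1 at -1.16 (adjusted p 2.05e-05 in limma). Elovl6, the palmitate elongase, was at -0.71 in KC3 and 0.37 in KC2, with KC3 minus KC2 at -1.08 (adjusted p 1.46e-06). Fads1, a desaturase, was at -0.66 in KC3, 0.37 in KC2 and 0.22 in KC1, with KC3 minus KC2 at -1.03 and KC3 minus KC1 at -0.88 (adjusted p 7.1e-07 and 2.85e-06). For Sqle, Fasn, Elovl6 and Fads1 no difference from KC4 reached a log2 value of 1.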

How the results depend on the processing

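No called difference changed direction under any alternative run. Of the values of called genes under these alternatives, 382 of 407 stayed called for KC3 minus KC4, 318 of 336 for KC3 minus KC2, 316 of 336 for KC3 minus KC1 and 40 of 54 for the class comparison. These totals include the run without a minimum difference, in which no call can be lost. For pairs of lines they also include runs without an array of a line outside the pair, which leave the compared arrays unchanged. Leaving out 1 array at a time gave 15 to 17 genes called for KC3 minus KC4, 14 to 15 for KC3 minus KC2, 13 to 15 for KC3 minus KC1, 2 to 2 for KC2 minus KC4, 0 to 1 for KC1 minus KC4, 0 to 0 for KC2 minus KC1 and 1 to 2 for the class. By adjusted p alone the counts in either direction were 28, 27, 25, 17, 15, 12 and 23 in that order. Of these, 0, 1, 0, 4, 2, 9 and 0 were higher. Over all genes the shares in either direction were 33.8%, 37.9%, 33.3%, 35.6%, 25.7%, 26.4% and 32.1%. With a log2 difference of at least 2 the counts were 4, 3, 2, 0, 0, 0 and 0. The shares of all genes at that difference are not given here, so these counts have no background to be read against.

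In the class comparison 1 gene was called with a pseudocount, with the mean of all probe sets, without s_at and x_at probe sets, with quantile normalization, with median centring and without KC3. There were 7 called without KC1 and 7 without KC2. With the line as a random block (consensus correlation 0.549) 0 were called, against 1.42% of all genes. Fdft1 was -0.95 to -0.996 without KC1 replicate 3, KC2 replicate 1, KC3 replicate 3 or KC4 replicate 1, -0.96 to -0.997 with the pseudocount, other probe set, quantile and median settings, and -0.45 (adjusted p 0.0509) with the mean of all probe sets. With that mean Fdps was -0.60, -0.73 and -0.86 for KC3 minus KC2, KC1 and KC4, and lost its calls. KC2 minus KC4 had 1 gene called with the mean of all probe sets (Acaca was at -0.77), and KC3 minus KC2 had 9 with median centring, which turned the split over all genes for KC3 minus KC4 to 969 higher and 637 lower (641 higher and 855 lower otherwise).

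The labels' replicate numbers did not pair the arrays: deviations of same-numbered arrays correlated at -0.206 to 0.178 over 18 pairs. With the replicate number as a block, 17, 14, 14, 2, 1, 0 and 2 genes were called in the order above, the same counts as without it. Replicate SD was 0.443 for dim genes (mean log2 under 6) and 0.104 for bright ones (over 9) by median, so values near the floor, such as those of Acacb, Cpt1c and Cyp27a1, are the least certain.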
